A study of Saccharomyces cerevisiae and Saccharomyces kudriavzevii and Saccharomyces uvarum with 18 samples.

Results

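The genes of sterol synthesis, esterification and uptake were described in wine fermentations of 3 yeast strains at 28°C and at 12°C. The 32 genes, of 6172 measured, were chosen by name. They were the mevalonate and ergosterol genes (ERG1 to ERG13 and the later ERG names, HMG1, HMG2, IDI1, MVD1 and NCP1), the sterol acyltransferase genes ARE1 and ARE2, the uptake genes AUS1 and PDR11, and the regulators UPC2, ECM22 and SUT1. All 32 were on the array, and 27 had a value on all 18 arrays. The strains were S. uvarum CECT 12600 (S. bayanus var. uvarum in the study's own text), S. kudriavzevii IFO 1802, and the commercial wine yeast S. cerevisiae Fermol cryophile. They were grown in Tempranillo must at 28°C or 12°C and taken at the start of stationary phase, with 3 arrays per strain and temperature. The titles name CECT 12600 for all S. uvarum arrays, but at both temperatures the strain label gives 12600 for replicate A, 12601 for replicate B and 12602 for replicate C, so it is not settled whether these replicates were of 1 strain or of 3. On every array the strain, in Cy3, was set against the S. cerevisiae wine strain Lalvin T73 of the same temperature, in Cy5, and no dye was exchanged. The probes were PCR products of the ORFs of S. cerevisiae S288c, so where S. uvarum or S. kudriavzevii is set against T73 or another strain, hybridisation and RNA level cannot be told apart in these ratios. Within 1 strain the same probes were used at both temperatures. The study also tested hybridisation with DNA of these species, which was not analysed here. It reports that most genes of both species hybridised well under its conditions.

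Ergosterol is the main membrane sterol of yeast. Acetyl-CoA is turned into mevalonate, isoprenoid diphosphates and farnesyl diphosphate, and from there into squalene, lanosterol and ergosterol. The path from squalene onwards needs molecular oxygen and haem enzymes, so yeasts in fermentation are known to depend on sterol made early or taken up from the must. Excess sterol is stored as steryl ester. The membrane sterol content is known to matter for growth in the cold and for tolerance of ethanol.

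All values below are log2 of strain over T73, where 1 is a 2-fold higher ratio in the strain. The replicates are named A, B and C. The arrays had medians between -0.196 and 0.208 and standard deviations between 0.63 and 1.99, so some arrays were much wider than others. Arrays of a group correlated between 0.028 and 0.615 across genes at 28°C and between 0.267 and 0.705 at 12°C. Of 81 pairs of arrays from different temperatures 15 lay below -0.3, the lowest at -0.618. The deposited sign was turned to strain over T73 on all arrays alike, and no array was turned apart from the others, because the labels state the same dyes for all and the 2 temperatures can oppose each other. No sterol gene had a value below -10. Genes with an adjusted p below 0.05 in limma are referred to as called.

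**Figure D1:**
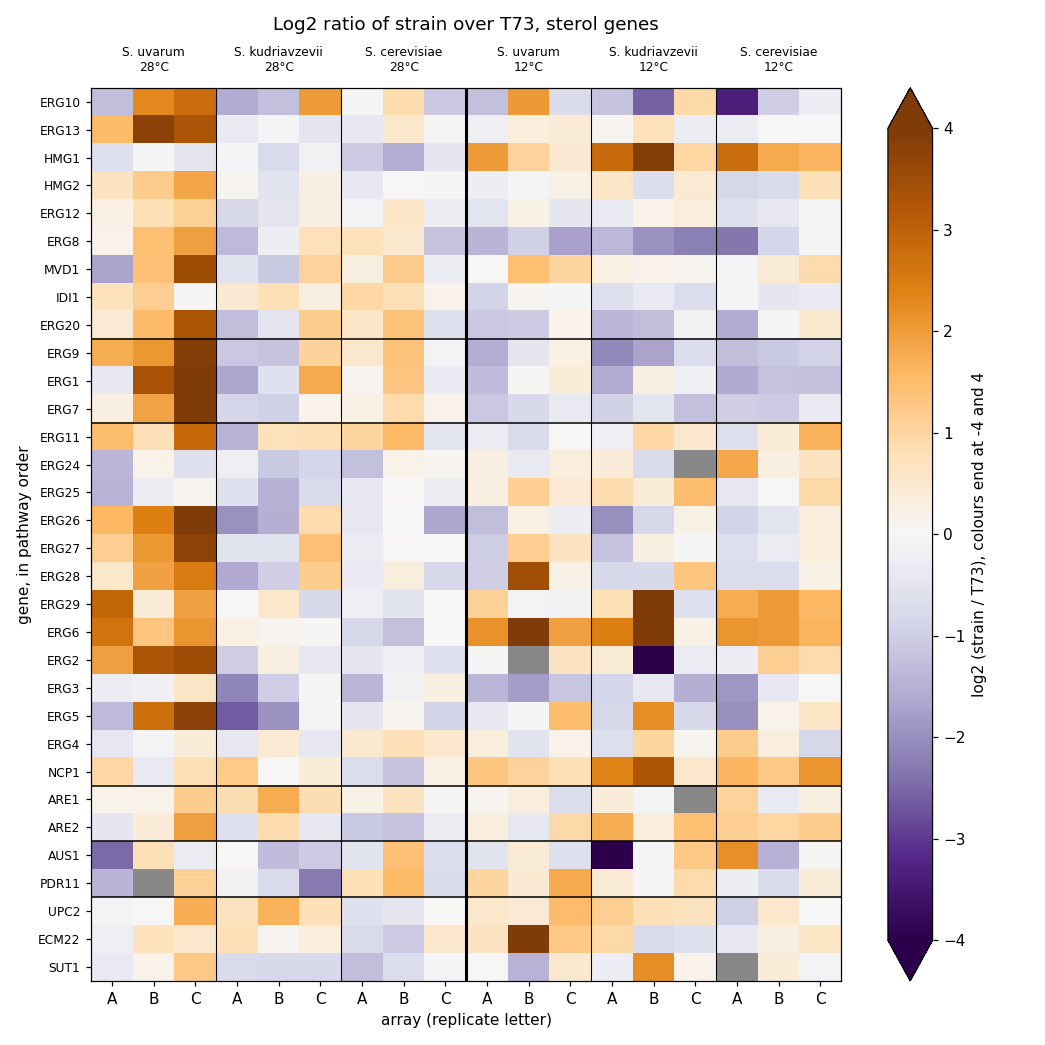
Log2 ratio of strain over T73 for the 32 sterol genes (rows, in pathway order, black lines between role groups) on the 18 arrays (columns, by strain and temperature, with the replicate letter below). Brown is higher and purple lower in the strain, and grey is missing. The S. uvarum arrays B and C at 28°C hold most of the dark brown cells, and HMG1 is above 0 on all 9 arrays at 12°C and below 0 on all 9 at 28°C.

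In S. uvarum at 28°C, 8 of the 32 sterol genes were called and all 8 were higher than in T73. Over all genes 10.9% were called in that comparison, 7.99% higher and 2.88% lower. The 8 genes cover early mevalonate steps (ERG13, HMG2), all 3 steps between farnesyl diphosphate and lanosterol (ERG9, ERG1, ERG7) and later steps (ERG26, ERG27, ERG2). The median over the 32 genes was 1.13, against 0.09 over all genes, and 26 genes had a mean above 0. The count was 4 when arrays were scaled to a common spread (all-gene calls higher then numbered 139, against 491) and 0 when the S. uvarum arrays at 28°C were fitted alone. For the fit alone the share of all genes called is not given here. In S. kudriavzevii and S. cerevisiae at 28°C 0 of 32 were called.

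Of the mevalonate genes, ERG13 (YML126C), HMG-CoA synthase, was at 1.54, 3.79 and 3.28 on the S. uvarum arrays A, B and C at 28°C. Its mean was 2.87 ± 1.18 (SD, n = 3; SE of the fit 0.38; adjusted p = 0.00188). On the 6 arrays of the other strains at 28°C it lay between -0.49 and 0.53, so that the S. uvarum arrays did not overlap them. The share of all genes separated in this way was not counted, so such separation, here and for genes below, cannot be called unusual. ERG13 was the only S. uvarum call at 28°C that was kept with every array left out in turn, and it was lost when the 3 arrays were fitted alone. HMG2 (YLR450W), a HMG-CoA reductase, the enzyme that sets the pace of the pathway, averaged 1.24 ± 0.60 in S. uvarum (adjusted p = 0.0438), all 3 arrays (0.65, 1.20 and 1.85) being above those of the other strains at 28°C. The other reductase gene, HMG1, was at -0.40 ± 0.31 in the same cells and was not called. HMG1 and HMG2 are similar in sequence, as are ARE1 and ARE2, AUS1 and PDR11, and UPC2 and ECM22, and PCR-product probes may share signal within each pair, so their separate values are uncertain.

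The other mevalonate genes were not called against T73 at 28°C in S. uvarum. Their means were 1.28 for ERG10 (acetoacetyl-CoA thiolase), 0.71 for ERG12 (mevalonate kinase), 1.18 for ERG8 (phosphomevalonate kinase) and 1.08 for MVD1 (mevalonate diphosphate decarboxylase). They were 0.64 for IDI1 (isopentenyl diphosphate isomerase) and 1.75 for ERG20 (farnesyl diphosphate synthase). The spread over the 3 arrays was wide for some of them. ERG10 was at -1.28, 2.31 and 2.80 and MVD1 at -1.70, 1.43 and 3.51 on arrays A, B and C.

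The 3 genes between farnesyl diphosphate and lanosterol had a median of 2.58 in S. uvarum at 28°C. ERG9 (YHR190W), squalene synthase, was at 1.76, 2.08 and 3.89 (mean 2.58 ± 1.15, adjusted p = 0.00647). ERG1 (YGR175C), squalene epoxidase, which uses oxygen, was at -0.40, 3.34 and 5.61 (mean 2.85 ± 3.04, adjusted p = 0.0346). ERG7 (YHR072W), lanosterol synthase, was at 0.26, 1.89 and 4.26 (mean 2.13 ± 2.01, adjusted p = 0.0166). Array C was the highest for all 3 genes and array A the lowest. Only ERG9 had all 3 S. uvarum arrays above all arrays of the other strains at 28°C, where it lay between -1.16 and 1.36.

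Between lanosterol and ergosterol, 3 of 13 genes were called in S. uvarum at 28°C. ERG26 (YGL001C), the C-3 sterol dehydrogenase of demethylation, was at 1.57, 2.46 and 4.42 (mean 2.82 ± 1.46, adjusted p = 0.00942). ERG27 (YLR100W), the 3-keto sterol reductase of the same complex, was at 1.13, 2.09 and 3.75 (mean 2.32 ± 1.32, adjusted p = 0.0115). ERG2 (YMR202W), the C-8 sterol isomerase, was at 1.96, 3.25 and 3.49 (mean 2.90 ± 0.82, adjusted p = 0.0288). On all 3 S. uvarum arrays ERG26 and ERG2 were above every array of the other strains at 28°C.

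The remaining late genes were not called there. ERG6 (C-24 sterol methyltransferase, adjusted p = 0.0511) and ERG11 (lanosterol demethylase, a cytochrome P450, adjusted p = 0.0526) just missed the threshold, at 2.02 ± 0.65 and 1.70 ± 1.07. ERG28, a scaffold of the demethylation complex, averaged 1.66. ERG29, which is needed for full ergosterol synthesis, averaged 1.73. ERG5 (C-22 desaturase) averaged 1.74 with arrays at -1.33, 2.74 and 3.81. ERG24 (C-14 reductase) was at -0.59, ERG25 (C-4 methyl oxidase) at -0.56, ERG3 (C-5 desaturase) at 0.06 and ERG4 (C-24(28) reductase) at -0.04. NCP1, the reductase that passes electrons to the P450 enzymes, was at 0.46. Of the genes that encode partners in 1 reaction sequence, ERG26 and ERG27 were called higher, while ERG25 was not called (SE 0.38, adjusted p = 0.345 in limma). Its arrays were at -1.46, -0.30 and 0.07, so an opposite sign was not shown.

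The size of the difference varied with the array. The median over the sterol genes was 0.16, 1.14 and 1.93 on the S. uvarum arrays A, B and C at 28°C, against all-gene medians of 0.21, -0.05 and 0.16 on the same arrays. On array A 17 genes were above 0 and 15 below, while on array C 29 were above and 3 below. Without S. uvarum replicate C at 28°C only 1 sterol gene, ERG13, was called, and the share of all genes called in that fit is not given here. By the study's own rule, a median over the replicates at least 2-fold from T73, 17 sterol genes passed, all higher, where 34.2% of all genes passed in either direction. All 3 arrays lay above 0 for 16 of the 31 genes with 3 values, and for 23.5% of all genes.

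**Figure D2:**
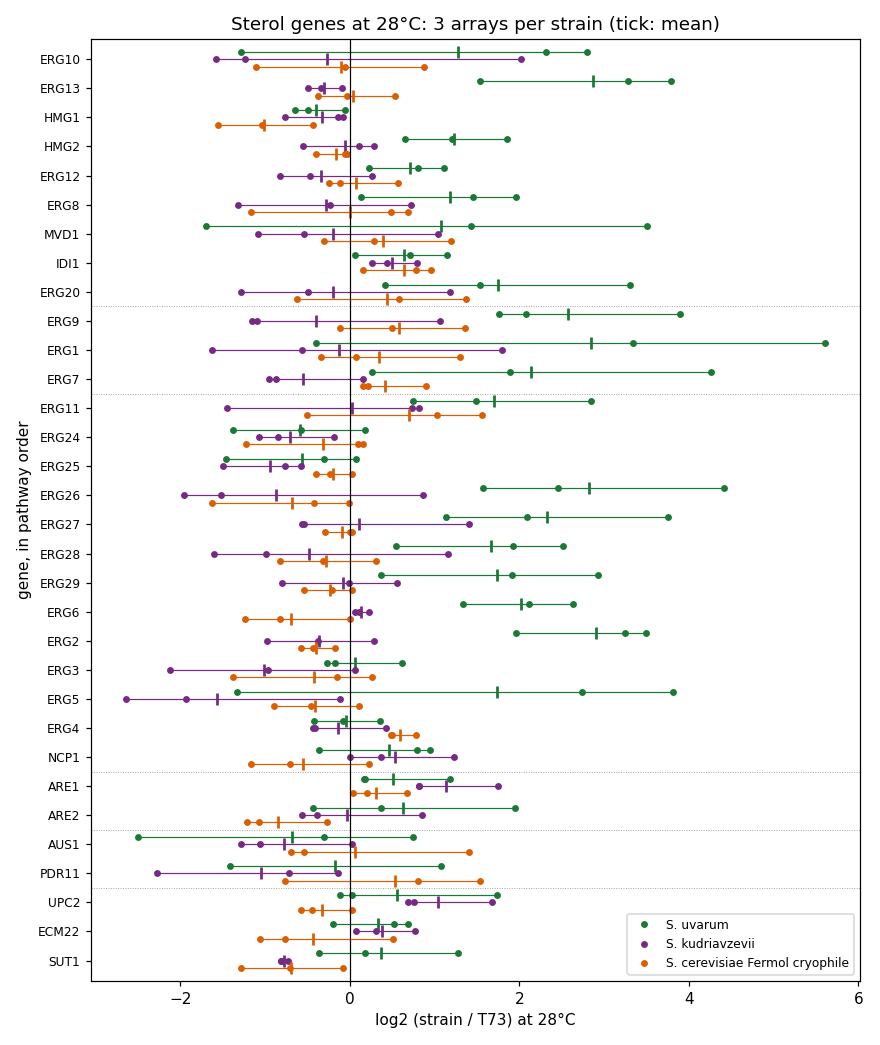
Log2 ratio of strain over T73 at 28°C (x axis) for each sterol gene (y axis, pathway order), with 1 point per array, a line over the range of the 3 arrays and a tick at their mean. The S. uvarum points of ERG13, HMG2, ERG9, ERG26, ERG6 and ERG2 lie to the right of all points of S. kudriavzevii and S. cerevisiae Fermol cryophile, while those of HMG1 are all below 0. How many of all genes lie so was not counted.

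At 28°C the other strains stood closer to T73. In S. kudriavzevii 0 of the 32 genes were called by limma, where 0.146% of all genes were called. An unadjusted p below 0.05 was found for 4 of the 32, where 11.3% of all genes had one. The median over the sterol genes was -0.27, and 24 of 32 means were below 0. By the 2-fold median rule 5 were lower (ERG10, ERG9, ERG26, ERG5 and AUS1), where 15.1% of all genes passed in either direction. ERG5 was the lowest of them, at -2.64, -1.93 and -0.12. In S. cerevisiae Fermol cryophile 0 were called by limma, where 0.0325% of all genes were called. In that strain 1 sterol gene had an unadjusted p below 0.05, where 13.4% of all genes did. By the 2-fold rule ERG11 was higher and HMG1 and ARE2 were lower, 3 of 32 genes, where 22.5% of all genes passed.

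The strains were then compared with each other, each ratio holding T73 of the same temperature. ERG13 was higher in S. uvarum than in S. kudriavzevii at 28°C by 3.17 (SE 0.54, adjusted p = 0.0402), the only sterol gene called in any of 6 strain pairs, and 0.146% of all genes were called in that pair. It was not called without 13 of the 18 arrays left out 1 at a time. Between S. uvarum and S. cerevisiae at 28°C no gene of any kind was called (0%). There 10 sterol genes had an unadjusted p below 0.05, where 8.4% of all genes did. ERG13 with a difference of 2.83 (SE 0.54) had an adjusted p of 0.104. The median difference over the sterol genes was 1.12, against 0.04 over all genes. In the other 4 pairs 0 sterol genes were called. In each of these pairs 1 or 2 had an unadjusted p below 0.05, where between 7.12% and 8.1% of all genes did. The share of all genes called was 0.0163% for S. kudriavzevii against S. cerevisiae at 28°C, 0.0162% for S. uvarum against S. cerevisiae at 12°C and 0% in the remaining pairs at 12°C.

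At 12°C the share of sterol genes called was close to or below that of all genes in each strain. In S. uvarum 2 of 32 genes were called (6.4% of all genes), in S. kudriavzevii 5 of 32 (23.4% of all genes) and in S. cerevisiae 2 of 32 (8.12% of all genes). The medians over the sterol genes were 0.05 in S. uvarum, 0.08 in S. kudriavzevii and -0.13 in S. cerevisiae, against 0.04, 0.07 and -0.13 over all genes. The medians of the list were thus close to those over all genes at 12°C, and its members lay on both sides of T73. The called genes were HMG1, NCP1, ERG6, ERG8, ERG9 and ECM22.

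HMG1 (YML075C) was above 0 on all 9 arrays at 12°C. It was at 2.03, 1.04 and 0.45 in S. uvarum (mean 1.17 ± 0.80, not called) and at 2.82, 3.92 and 0.98 in S. kudriavzevii (mean 2.57 ± 1.48, adjusted p = 0.00318). In S. cerevisiae it was at 2.77, 1.79 and 1.61 (mean 2.06 ± 0.62, adjusted p = 0.0233). The S. kudriavzevii call was kept with every array left out in turn and lost when the 3 arrays were fitted alone. HMG2 differed from this, with means of -0.04 in S. uvarum, 0.12 in S. kudriavzevii and -0.27 in S. cerevisiae at 12°C, none of them called.

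NCP1 (YHR042W) was likewise above 0 on all 9 arrays at 12°C. It was at 1.29, 1.04 and 0.81 in S. uvarum (mean 1.05 ± 0.24, not called) and at 2.35, 3.23 and 0.52 in S. kudriavzevii (mean 2.03 ± 1.39, adjusted p = 0.00735). In S. cerevisiae it was at 1.60, 1.25 and 2.11 (mean 1.65 ± 0.44, adjusted p = 0.04). The 3 strains overlapped. ERG6 (YML008C) was the third gene above 0 on all 9 arrays. It was at 2.14, 4.63 and 1.96 in S. uvarum (mean 2.91 ± 1.49, adjusted p = 0.0162) and at 2.46, 4.89 and 0.20 in S. kudriavzevii (mean 2.52 ± 2.35, adjusted p = 0.0124). In S. cerevisiae it was at 2.10, 2.02 and 1.64, a mean of 1.92 ± 0.24 that was not called. The share of all genes above 0 on all 9 arrays was not counted. Within 1 strain at 12°C all 3 arrays were above 0 for 22.6% of all genes with 3 values in S. uvarum. For S. kudriavzevii it was 25.1% and for S. cerevisiae 26.9%.

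The calls on the lower side at 12°C were ERG8 and ERG9 in S. kudriavzevii. ERG8 (YMR220W) was at -1.36, -1.95 and -2.19 (mean -1.83 ± 0.42, adjusted p = 0.0171), and it was below 0 on all 9 arrays at that temperature. ERG9 was at -2.08, -1.69 and -0.71 (mean -1.49 ± 0.71, adjusted p = 0.0425). The means of ERG9 were -0.61 in S. uvarum and -1.08 in S. cerevisiae, neither called. ERG7 and ERG3 were also below 0 on all 9 arrays at 12°C without a call in any strain. The share of all genes below 0 on all 9 was not counted. Within 1 strain all 3 arrays were below 0 for 26.3% of all genes with 3 values in S. uvarum, 25.7% in S. kudriavzevii and 38.3% in S. cerevisiae. The second S. uvarum call, the regulator ECM22 (YLR228C), had values of 0.64, 5.25 and 1.27 (mean 2.38 ± 2.50, adjusted p = 0.0357). It was lost without S. uvarum replicate B or C or S. cerevisiae replicate B at 12°C, and with the S. uvarum arrays alone.

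These counts depended on single arrays. Without S. kudriavzevii replicate B at 12°C, the array with the widest spread, 1 of the 5 S. kudriavzevii calls was made and 4 sterol genes were called in S. cerevisiae. Without S. uvarum replicate B or C at 12°C 0 were called in S. uvarum, and without any of the 3 S. cerevisiae arrays at 12°C 0 were called in S. cerevisiae. Fitted on its own arrays, S. uvarum had 0 calls, S. kudriavzevii 0 and S. cerevisiae 7. For these fits, with arrays left out or alone, the share of all genes called is not given here. The counts therefore do not set the sterol genes apart from other genes. By the 2-fold median rule 9 genes passed in S. uvarum (27.8% of all genes), 8 in S. kudriavzevii (40.3%) and 7 in S. cerevisiae (30.3%). HMG1, NCP1 and ERG6 were higher by that rule in all 3 strains. The 3 strains share T73 at each temperature, so that agreement between them includes what T73 itself did.

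Single arrays gave extreme values at 12°C. ERG2 was at -5.67 and ERG29 at 5.75 on S. kudriavzevii replicate B, where their other values lay between -0.30 and 0.39 and between -0.62 and 0.79. ERG28 was at 3.45 on S. uvarum replicate B, against -0.98 and 0.20 on replicates A and C. None of these means was called.

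The ratios at 28°C were then set against those at 12°C. Each ratio holds T73 of its own temperature, so this difference contains the response of T73 with the opposite sign. Averaged over the 3 strains, 10 of 32 sterol genes were called, a share near the 36.2% called over all genes. Of these, 6 were higher at 28°C (19.8% of all genes) and 4 were lower at 28°C (16.4% of all genes). ERG8, IDI1, ERG20, ERG9, ERG1 and ERG7 were higher at 28°C, and HMG1, ERG6, NCP1 and ERG25 were lower. The higher genes lie between phosphomevalonate and lanosterol. MVD1 lies there too but had a difference of -0.04 (SE 0.54, adjusted p = 0.964 in limma). Whether this part of the path stood out from all genes was not tested. When each array was centred on its median the split of the sterol genes became 4 higher and 5 lower, and when arrays were also scaled to a common spread 3 higher and 6 lower. Over all genes the split was 1207 higher and 998 lower as deposited, 1025 and 1112 after centring, and 958 and 1094 after scaling. No called sterol gene changed its direction under these settings.

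HMG1 had the smallest adjusted p of the sterol genes, with a difference of -2.52 (SE 0.38, adjusted p = 0.000327). It was at -0.65, -0.06 and -0.49 in S. uvarum at 28°C, at -0.08, -0.76 and -0.14 in S. kudriavzevii and at -1.04, -1.56 and -0.44 in S. cerevisiae. The highest of the 9 arrays at 28°C was thus at -0.06 and the lowest at 12°C at 0.45, with no overlap. Among the 27 sterol genes with all 18 values HMG1 was the only 1 whose temperatures did not overlap, where 3.59% of all such genes did not. HMG2 had a difference of 0.41 (SE 0.31) and was not called.

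ERG6 was lower at 28°C, with a difference of -1.96 (SE 0.52, adjusted p = 0.00899). The S. uvarum arrays at 28°C were at 2.63, 1.33 and 2.11, within the range of all strains at 12°C (0.20 to 4.89). The value of 1.33 lay below the S. uvarum arrays at 12°C (2.14, 4.63 and 1.96). The S. kudriavzevii arrays at 28°C were at 0.22, 0.11 and 0.06 and the S. cerevisiae arrays at -0.83, -1.24 and 0.00. NCP1 had a difference of -1.43 (SE 0.37, adjusted p = 0.00788), with a lowest, median and highest value of -1.17, 0.22 and 1.23 at 28°C and 0.52, 1.29 and 3.23 at 12°C. ERG25 (YGR060W) had a difference of -1.13 (SE 0.31, adjusted p = 0.0102), with values of -1.50, -0.40 and 0.07 at 28°C and -0.41, 0.42 and 1.48 at 12°C. For all 3 genes the arrays of the 2 temperatures overlapped.

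On the other side, ERG9 was higher at 28°C by 1.98 (SE 0.41, adjusted p = 0.00225), with a lowest, median and highest value of -1.16, 1.06 and 3.89 at 28°C and -2.08, -1.08 and 0.23 at 12°C. ERG8 was higher by 1.73 (SE 0.41, adjusted p = 0.00468), with values of -1.32, 0.49 and 1.96 at 28°C and -2.34, -1.41 and -0.04 at 12°C. ERG7 was higher by 1.49 (SE 0.42, adjusted p = 0.0126), with values of -0.95, 0.21 and 4.26 at 28°C and -1.23, -0.91 and -0.36 at 12°C. In these 3 genes the median array was above 0 at 28°C and below 0 at 12°C. The differences within S. uvarum, S. cerevisiae and S. kudriavzevii were 3.18, 1.65 and 1.09 for ERG9. In the same order they were 2.55, 1.08 and 1.56 for ERG8 and 2.90, 1.23 and 0.33 for ERG7. S. uvarum thus had the largest in each, and only its ERG9 and ERG7 differences were called.

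IDI1 (YPL117C) showed a smaller but even difference of 0.97 (SE 0.26, adjusted p = 0.00904). At 28°C its values were 0.71, 1.14 and 0.06 for S. uvarum, 0.44, 0.79 and 0.26 for S. kudriavzevii, and 0.96, 0.78 and 0.16 for S. cerevisiae. At 12°C they were -0.88, 0.10 and -0.05 for S. uvarum, -0.64, -0.37 and -0.70 for S. kudriavzevii, and -0.09, -0.45 and -0.33 in S. cerevisiae. All 9 arrays at 28°C and 1 of 9 at 12°C lay above 0. ERG20 (difference 1.31, SE 0.47, adjusted p = 0.0401) and ERG1 (difference 1.73, SE 0.66, adjusted p = 0.0493) lay close to the threshold. Their calls were lost in 12 and 14 of 18 fits with 1 array left out. Within S. uvarum, S. cerevisiae and S. kudriavzevii the differences were 2.42, 0.78 and 0.74 for ERG20 and 3.15, 1.68 and 0.37 for ERG1. For IDI1 they were 0.91, 0.93 and 1.07. The ERG8 call was lost when arrays were scaled to a common spread. The other 7 calls were kept with every array left out and under all 7 other settings tried.

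**Figure D3:**
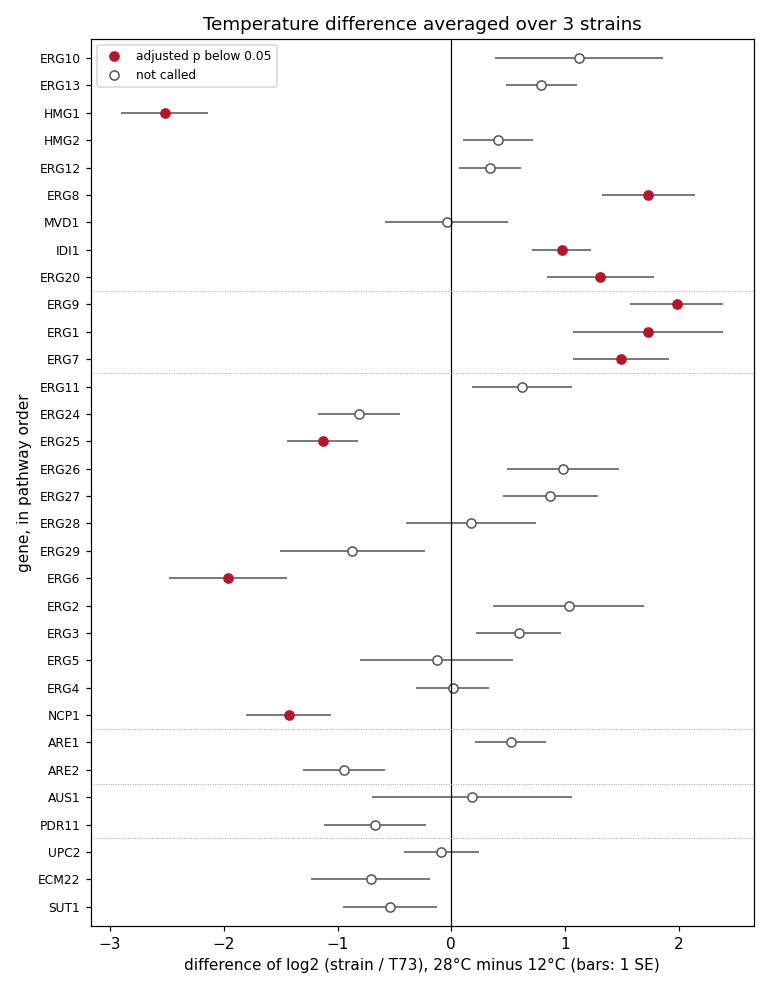
Difference of log2 strain over T73 between 28°C and 12°C, averaged over the 3 strains (x axis, 28°C minus 12°C, bars 1 SE of the fit), for each sterol gene in pathway order (y axis). Filled points were called. The 3 genes from farnesyl diphosphate to lanosterol are all to the right of 0, between 1.49 and 1.98, and HMG1, at -2.52, is farthest to the left.

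Within single strains fewer genes were called. In S. uvarum 4 of 32 sterol genes were called and all were higher at 28°C, where 2.87% of all genes were called. They were ERG13 (2.70, SE 0.54, adjusted p = 0.0241), ERG9 (3.18, SE 0.72, adjusted p = 0.0344), ERG7 (2.90, SE 0.73, adjusted p = 0.043) and ERG26 (3.25, SE 0.84, adjusted p = 0.0463). At 12°C ERG13 was at -0.21, 0.34 and 0.38 in S. uvarum, ERG7 at -1.12, -0.81 and -0.37, and ERG26 at -1.28, 0.22 and -0.24, each below all 3 of its arrays at 28°C. Without S. uvarum replicate C at 28°C, or without any of the 3 S. uvarum arrays at 12°C, 0 were called. Without replicate A at 28°C 8 were called, where 10.9% of all genes were. With scaled arrays, or with the S. uvarum arrays alone, 0 were called. Over all genes 39 were called higher and 51 lower with scaled arrays, against 123 and 53 as deposited. All-gene shares for the other fits with 0 sterol calls are not given here.

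In S. kudriavzevii 0 of 32 were called by limma, where 0.407% of all genes were called. An unadjusted p below 0.05 was found for 7 of the 32, where 20.4% of all genes had one. In S. cerevisiae 2 of 32 were called, where 12.2% of all genes were called. These were HMG1 (difference -3.07, SE 0.65, adjusted p = 0.0196) and NCP1 (difference -2.20, SE 0.64, adjusted p = 0.038), both lower at 28°C. Without S. cerevisiae replicate A or B at either temperature 0 were called, and without S. kudriavzevii replicate B at 12°C 5 were called. All-gene shares for these fits are not given here. In S. cerevisiae the median difference over all genes was 0.28 as deposited and 0.04 after centring, and HMG1 and NCP1 were called lower under both. NCP1 was at -0.71, -1.17 and 0.22 in S. cerevisiae at 28°C.

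Whether the temperature difference itself differed between strains was tested for each gene. By limma 0 of 32 sterol genes and 0% of all genes were called in each of the 3 comparisons. For S. uvarum against S. kudriavzevii 6 sterol genes had an unadjusted p below 0.05, where 4.85% of all genes did. For S. uvarum against S. cerevisiae it was 5 (2.79% of all genes), and for S. kudriavzevii against S. cerevisiae 0 (5.62%). For ERG13 the response of S. uvarum exceeded that of S. kudriavzevii by 3.18 (SE 0.76, adjusted p = 0.558) and that of S. cerevisiae by 2.55 (SE 0.76, adjusted p = 0.993). Gene by gene, the sterol response of S. uvarum to temperature was therefore not shown to differ from that of the other strains. Whether the list as a whole differed was not tested.

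**Figure D4:**
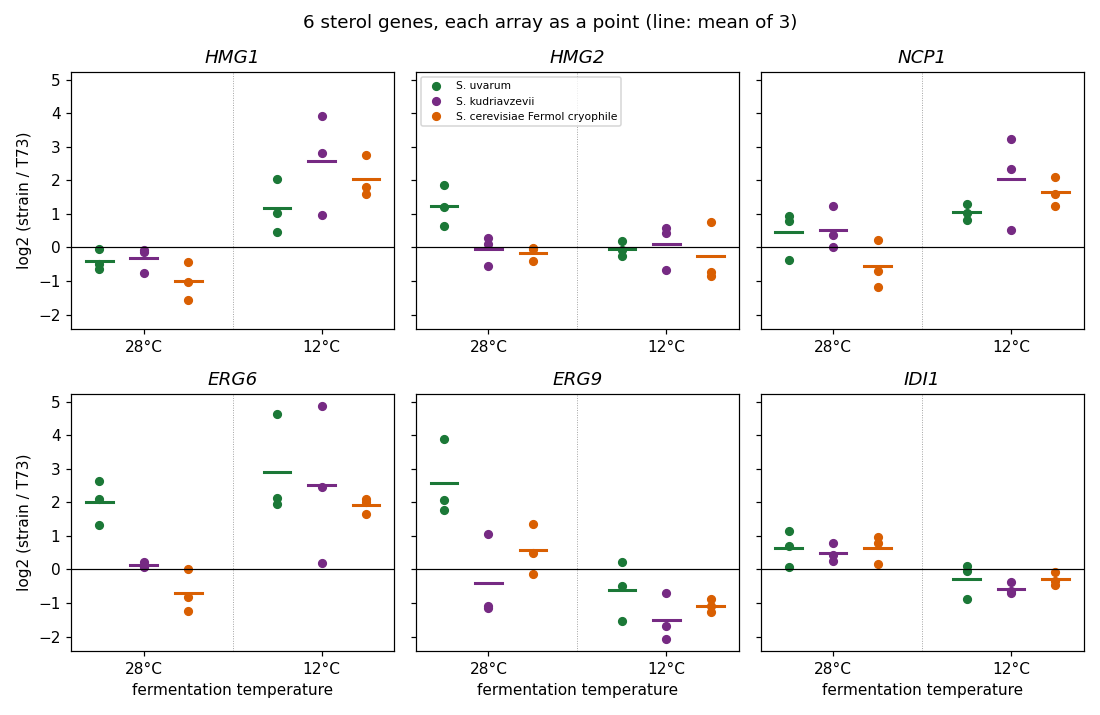
Log2 ratio of strain over T73 (y axis) by fermentation temperature (x axis, 28°C left, 12°C right) for HMG1, HMG2, NCP1, ERG6, ERG9 and IDI1, with 1 point per array, colours for the 3 strains and a line at each mean of 3 arrays. HMG1 lies between -1.56 and -0.06 at 28°C and between 0.45 and 3.92 at 12°C, while HMG2 lies between -0.55 and 1.85 at 28°C and between -0.84 and 0.77 at 12°C.

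The genes of esterification, uptake and regulation gave 1 call in all comparisons with T73 or between temperatures, that of ECM22. ARE1 and ARE2 encode the acyltransferases that store sterol as ester. ARE2 (YNR019W) was at -0.44, 0.37 and 1.95 in S. uvarum at 28°C, at -0.57, 0.85 and -0.39 in S. kudriavzevii and at -1.07, -1.21 and -0.27 in S. cerevisiae. At 12°C it was at 0.30, -0.38 and 0.92 in S. uvarum, at 1.78, 0.33 and 1.44 in S. kudriavzevii and at 1.13, 0.98 and 1.21 in S. cerevisiae. Its averaged difference of -0.94 (SE 0.36, adjusted p = 0.0514) just missed the threshold. ARE1 had a difference of 0.52 (SE 0.31), opposite in sign, with all 9 arrays at 28°C above 0, and was not called.

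AUS1 and PDR11 encode the transporters that take up sterol when oxygen is lacking. PDR11 (YIL013C) was at -1.41 and 1.07 on the 2 S. uvarum arrays with a value at 28°C, at -0.14, -0.72 and -2.28 in S. kudriavzevii and at 0.80, 1.54 and -0.76 in S. cerevisiae. At 12°C it was at 1.01, 0.45 and 1.79 in S. uvarum, at 0.38, 0.04 and 0.89 in S. kudriavzevii and at -0.25, -0.74 and 0.36 in S. cerevisiae. The arrays of the 2 temperatures overlapped, and the averaged difference was -0.67 (SE 0.45, not called). AUS1 had the largest SE of the sterol genes (0.88 on a difference of 0.18), with 1 value of -6.97 in S. kudriavzevii replicate A at 12°C.

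UPC2 and ECM22 encode the sterol-sensing activators of the ERG genes, and SUT1 a factor of sterol uptake under anaerobic conditions. At 28°C in S. uvarum UPC2 was at -0.12, 0.03 and 1.74 (mean 0.55), ECM22 at -0.20, 0.69 and 0.52 (mean 0.34) and SUT1 at -0.36, 0.18 and 1.28 (mean 0.36). None of them was called. UPC2 was at 0.68, 1.68 and 0.76 in S. kudriavzevii at 28°C and was not called there either. Averaged over the strains the temperature differences were -0.09 for UPC2, -0.71 for ECM22 and -0.54 for SUT1, none called.

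Related genes were counted from a list of 42 genes. The list held steryl ester turnover, sterol transfer with the oxysterol-binding protein family, enzyme stability, oxygen and haem regulation, isoprenoid branches, electron supply and haem synthesis. In S. uvarum at 28°C 8 of 41 tested were called, all higher (OSH7, COQ1, NSG2, HEM12, HRD3, HEM2, CYB5 and NUS1), where 7.99% of all genes were called higher. At 28°C 0 were called in S. kudriavzevii (0.146% of all genes) and 0 in S. cerevisiae (0.0325%). At 12°C, of 42 tested, 2 were higher and 1 lower in S. uvarum (6.4% of all genes called), 4 higher and 4 lower in S. kudriavzevii (23.4%), and 0 higher and 2 lower in S. cerevisiae (8.12%). In the temperature difference averaged over the strains 9 of 41 were higher and 4 lower at 28°C, where 19.8% of all genes were higher and 16.4% lower. At 12°C and in the averaged difference the shares of related genes thus lay close to or below those of all genes.

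Values are given for the related genes with the smallest adjusted p in that difference. NSG2 encodes a protein that regulates the stability of HMG-CoA reductase. Its averaged difference was 2.26 (SE 0.43, adjusted p = 0.00137). It was at 1.17, 2.02 and 3.48 in S. uvarum at 28°C, against -1.38, -1.25 and -2.25 at 12°C, and at 0.74, 1.35 and 0.55 in S. cerevisiae at 28°C, against -1.23, -1.77 and -1.52 at 12°C. In S. kudriavzevii the temperatures overlapped, with -1.51, -0.94 and 0.87 at 28°C, against -2.07, -1.70 and 0.57 at 12°C. OSH7, of the oxysterol-binding protein family, was higher at 28°C by 2.01 (SE 0.29, adjusted p = 0.000326), with values of 1.52, 1.02 and 2.50 for S. uvarum, 0.10, -0.72 and 0.64 for S. kudriavzevii and 0.43, 0.59 and 0.24 for S. cerevisiae at 28°C, and all 9 arrays at 12°C below 0. OSH6 of the same family was higher by 1.21 (adjusted p = 0.00347) and COQ1, hexaprenyl diphosphate synthase of ubiquinone synthesis, by 1.90 (adjusted p = 0.00148). HEM14, protoporphyrinogen oxidase of haem synthesis, was lower at 28°C, with a difference of -1.82 (adjusted p = 0.00501).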

How the data were processed

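The authors deposited 1 log2 ratio per ORF and array, with T73 in Cy5 and the strain in Cy3. By their methods, GenePix Pro subtracted a global background, and in Acuity each array was set to a log2 ratio of 1 (read here as a ratio of 1, given the array medians), unfound spots were dropped, and a manual print-tip correction was made. Scanner intensities were not used, so signal over background is unknown, and precision is limited by how many arrays there were. The deposited sign was turned to strain over T73, after which 114 of 114 directions in the study's text matched, against 0 as deposited, which checks the sign of the file and not the dyes. Of 6180 lines 2 were controls, and lines of 6 genes were averaged, leaving 6172 genes. Symbols came from RefSeq (assembly R64), and 1.48% of values were missing.

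Each gene was fitted in limma 3.58.1 (R 4.3.3) on all 18 arrays with a mean for each of the 6 groups (prior df 4.74), at least 2 values per group compared, two-sided, with Benjamini-Hochberg adjustment over all genes of a comparison. T73 was only the other channel, so its spread between arrays is part of the spread of the ratios and cannot be given apart. The arrays were fitted as independent. If the strains shared T73 material at a temperature, the SE and p-values of the averaged temperature difference are too small. The methods speak of 2 fermentations for sampling and 3 experiments for arrays, and if arrays shared a fermentation the p-values are too small. The S. uvarum arrays were grouped by their titles. The members and lists were chosen with earlier results of these data known. Called members were given array by array, up to 14 by adjusted p, and role groups without one by the member with the smallest p in the averaged temperature difference. The OSH, NSG2, COQ1 and HEM14 values are the 5 smallest adjusted p of the related list. Alternatives were centred arrays, scaled arrays, values below -10 set missing, array weights, the replicate letter as a random block, genes with all values, the arrays of a comparison alone, each array left out, and the 2-fold median rule.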

Additional observations from a re-analysis of the deposited data

Results flagged for a closer look

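Sterol genes whose ratio to T73 differed between temperatures or strains by a test were listed, each with its difference on the log2 scale. For 28°C minus 12°C in S. uvarum these were ERG26 (3.25), ERG9 (3.18), ERG7 (2.90) and ERG13 (2.70). In S. cerevisiae they were HMG1 (-3.07) and NCP1 (-2.20). Averaged over the 3 strains they were ERG9 (1.98), ERG8 (1.73), ERG1 (1.73), ERG7 (1.49), ERG20 (1.31), IDI1 (0.97), ERG25 (-1.13), NCP1 (-1.43), ERG6 (-1.96) and HMG1 (-2.52). Between strains it was ERG13, in S. uvarum minus S. kudriavzevii at 28°C (3.17). The groups of 3 arrays were too small for a test of single outlying arrays.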

How the results depend on the processing

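Of 34 calls of sterol genes, 0 changed direction under any setting, 10 were kept with every array left out in turn, 11 under all 7 other fits, and 7 under both. Those 7 were all calls of the averaged temperature difference, where the fit on the arrays of the comparison alone repeated the main fit. Against the arrays as deposited, the counts of called sterol genes moved as follows. With arrays scaled to a common spread they were 4 in S. uvarum, 1 in S. kudriavzevii at 28°C, 2 in S. kudriavzevii and 4 in S. cerevisiae at 12°C, 0 for temperature in S. uvarum, 4 for temperature in S. cerevisiae and 0 in strain pairs. After centring they were 2 for temperature in S. uvarum and 4 in S. cerevisiae. With array weights they were 5 in S. kudriavzevii and 3 in S. cerevisiae at 28°C, 10 in S. cerevisiae at 12°C, 1 for temperature in S. kudriavzevii, 11 in S. cerevisiae and 12 in strain pairs. With the arrays of the comparison alone they were 0 in S. uvarum at both 28°C and 12°C, 0 for S. kudriavzevii and 7 for S. cerevisiae at 12°C, 0 for temperature in S. uvarum, 7 in S. cerevisiae and 0 in strain pairs. By the 2-fold rule they were 17, 5 and 3 at 28°C and 9, 8 and 7 at 12°C in S. uvarum, S. kudriavzevii and S. cerevisiae. The cause was not tested. Calls over all genes moved with the setting too. With scaled arrays they were 263 higher and 188 lower in S. kudriavzevii at 12°C, against 841 and 598 as deposited. In S. cerevisiae at 12°C they were 616 and 176, against 346 and 155. All-gene shares for array weights, the arrays alone and left-out arrays are not given here, so these moves cannot be read as particular to the sterol genes. With 1 array left out the counts of called sterol genes ranged between 1 and 11 in S. uvarum at 28°C and were 0 throughout in the other strains at 28°C. At 12°C they ranged between 0 and 2 for S. uvarum, 1 and 6 for S. kudriavzevii, and 0 and 4 for S. cerevisiae. For temperature they ranged between 0 and 8 for S. uvarum, 0 and 3 for S. kudriavzevii, 0 and 5 for S. cerevisiae and 8 and 12 averaged, and between 0 and 6 in strain pairs. Arrays of the same replicate letter were not paired, since 5 of 18 pairs had residuals correlated above 0.1. With the replicate block the averaged count was 9 and that of S. uvarum at 28°C 9, and 33 of 34 calls were kept, ERG1 in the averaged difference being lost.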
